A study of Mus musculus with 10 samples.

Results

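The miR-23, miR-27 and miR-24 miRNAs are made from a pair of related gene clusters, each of which carries 1 hairpin of each kind. Members were all rows of the deposited miRNA table whose names begin with miR-23a, miR-23b, miR-27a, miR-27b or miR-24, which gave 11 of 733 rows. They were 5 guide strands (mmu-miR-23a-3p, mmu-miR-23b-3p, mmu-miR-27a-3p, mmu-miR-27b-3p and mmu-miR-24-3p, written below without the species prefix) and 6 passenger strands (mmu-miR-23a-5p, mmu-miR-23b-5p, mmu-miR-27a-5p, mmu-miR-27b-5p, mmu-miR-24-1-5p and mmu-miR-24-2-5p). The guide strands held 99.6% of the members' counts.

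Small RNA was sequenced from small extracellular vesicles, membrane particles released by cells, that were prepared from collagenase-digested hearts of male C57BL/6J mice. In the HFD plus L-NAME group, mice aged 8 weeks at the start received a diet with 60% fat and drinking water with 0.5 g/L L-NAME, a nitric oxide synthase inhibitor, for 12 weeks to model HFpEF, heart failure in which the ejection fraction is preserved. The control group received chow, and its labels name no L-NAME. Diet and drug were given together, so their effects cannot be told apart. The groups are called treated and control below. Each had 5 libraries, and the labels do not tie each to a separate mouse; the spread that p-values measure is that of these libraries and may be technical. The series' title names cardiomyocytes as the source, but any cell of the digested heart could have released these vesicles, and fewer vesicles from a cell type and less of a miRNA per vesicle cannot be told apart in such bulk samples.

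Both clusters are transcribed as 1 primary RNA that is cut into hairpins, each of which yields a guide strand, loaded into Argonaute to repress messenger RNAs, and a passenger strand that is mostly degraded. The clusters are known for their expression in endothelial cells and for control of vessel sprouting. In the heart, miR-23a is known as pro-hypertrophic in cardiomyocytes, and miR-24 as a regulator of endothelial survival and of excitation-contraction coupling. A role in lipid metabolism and fat cell differentiation is known for miR-27.

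The a cluster, Mir23a, Mir27a and Mir24-2, lies on chromosome 8 (chr8:84208518-84208921, plus strand, GRCm38) and overlaps no protein-coding gene there; the end of Mir24-2 overlaps the start of the non-coding RNA gene Gm26532. The b cluster, Mir23b, Mir27b and Mir24-1, lies on chromosome 13 (chr13:63300484-63301275, plus strand) inside the protein-coding gene 2010111I01Rik, which encodes aminopeptidase O. Mir23b is intronic, whereas Mir27b and Mir24-1 overlap exons of its transcripts annotated as non-coding or as subject to nonsense-mediated decay. The Fanconi anaemia gene Fancc runs across the b cluster on the opposite strand. The hairpins of the a cluster span 404 bases and those of the b cluster 792 bases.

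The mature sequences are shown because they decide which reads can be told apart. RefSeq (GRCm38.p6) held a mature sequence for 10 of the 11 members, all but miR-23b-3p. Capitals mark the seed, bases 2 to 8 from the 5′ end, which pairs with target messenger RNAs.
miR-27a-3p (chr8:84208727-84208747): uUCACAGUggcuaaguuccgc
miR-27b-3p (chr13:63300760-63300780): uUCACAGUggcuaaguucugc
miR-23a-3p (chr8:84208563-84208583): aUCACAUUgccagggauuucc
miR-24-3p (chr8:84208875-84208896 and chr13:63301251-63301272): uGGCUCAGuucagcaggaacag
miR-24-2-5p (chr8:84208839-84208860): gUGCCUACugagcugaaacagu
miR-24-1-5p (chr13:63301213-63301235): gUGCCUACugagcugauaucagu
All are on the plus strand. The guide strands miR-27a-3p and miR-27b-3p share their seed and differ by 1 base, C19U, counted from the 5′ end with the base of miR-27a-3p first. The guide strand miR-24-3p is the same sequence from both clusters, so its counts cannot be split between them. By contrast its passenger strands differ at 5 of 22 positions compared from the 5′ end without gaps, all after the shared seed. They are 22 and 23 bases long, so a shift by the extra base can add to this count. Apart from these pairs, 0 other miRNAs of the table with a RefSeq mature sequence had the same bases 2 to 8 as a member. Rows without a RefSeq sequence, miR-23b-3p among them, could not be compared in this way.

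The hairpin of Mir23b is shown with the stretch that it shares with miR-23a-3p in capitals.
Mir23b (chr13:63300484-63300557): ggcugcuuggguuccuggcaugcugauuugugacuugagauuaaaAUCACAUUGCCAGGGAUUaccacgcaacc
The first 18 of the 21 bases of miR-23a-3p were found in it without a break, seed included. Over the length of miR-23a-3p the hairpin differed by 1 base, U19A, with the base of miR-23a-3p first. A read of miR-23 or miR-27 that ends before base 19 therefore cannot be assigned to the a or the b cluster by its sequence. How such reads were counted is not given in the sources used here, so the split between a and b forms is uncertain.

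The libraries held 238434 to 420828 miRNA counts, and each guide strand had 2225 to 19462 counts per library, so counting error was at most 2.12% of a guide strand's count. Levels are given as CPM, miRNA counts scaled to a common library size, after TMM normalization, which scales libraries so that most miRNAs do not differ. The heart markers miR-1a-3p, miR-133a-3p, miR-208a-3p and miR-499-5p were detected in every library, with a summed level of 246829 to 474068 CPM. Of all miRNA counts, the members took 7.76% ± 1.71 in control and 7.49% ± 0.980 in the treated group (SD, n = 5 each). Control 1 stood apart, with 10.7% (exact 95% interval 10.6% to 10.8%, counting error only). The other 9 libraries held 6.06% to 8.57%.

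The highest of the members was miR-27b-3p, the tenth most abundant miRNA of the table, at 28721 ± 9588 CPM in control and 29850 ± 2116 CPM in the treated group. It was followed by miR-23a-3p, miR-23b-3p, miR-27a-3p and miR-24-3p, which lay near one another. In control the order after miR-27b-3p was miR-23a-3p at 16047 ± 1319 CPM, miR-23b-3p at 11527 ± 2116 CPM, miR-27a-3p at 10950 ± 3312 CPM and miR-24-3p at 9281 ± 2536 CPM. The last 3 did not differ beyond their spread. In the treated group, miR-24-3p stood at 11905 ± 1690 CPM and miR-23a-3p at 11864 ± 933 CPM, ahead of miR-23b-3p at 10842 ± 1236 CPM and miR-27a-3p at 10362 ± 739 CPM, and none of these 4 lay apart from its neighbour by more than the spread. Small RNA libraries capture different sequences with unequal efficiency, so these orders describe reads.

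**Figure D1:**
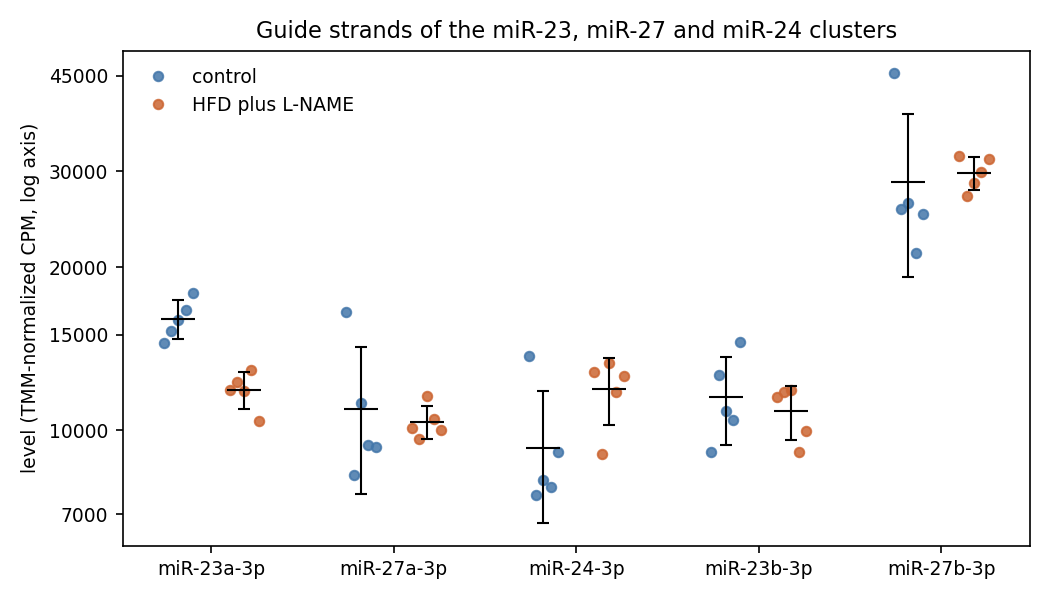
Level of the 5 guide strands in each library (TMM-normalized CPM, log axis), with points for libraries and a black bar for the group mean ± SD (n = 5). The groups are apart for miR-23a-3p, and the highest control point of miR-27a-3p, miR-27b-3p and miR-24-3p is control 1.

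Of the 177 miRNAs that passed the filter on low counts, edgeR called 0 between treated and control libraries at an adjusted p of 0.05, which is 0% of those tested, while 28 had an unadjusted p under 0.05. DESeq2's Wald test called 3, 1.69% of those tested, all lower in the treated group. Of the members 8 passed the filter and 3 did not, namely miR-23a-5p, miR-23b-5p and miR-24-1-5p. By edgeR 0 of the 8 were called. By DESeq2's Wald test 1 was called, miR-23a-3p (adjusted p = 0.0466). At an unadjusted p under 0.05 by edgeR, 1 of the 8 was found, miR-23a-3p, where the background was 15.8% of all tested miRNAs, 8.47% lower and 7.34% higher.

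The guide strand miR-23a-3p, known to repress the muscle ubiquitin ligase MuRF1, had lower values in the treated group. Its control libraries held 14468, 15258, 15957, 16635 and 17916 CPM, and its treated libraries 11854, 12293, 11819, 12946 and 10406 CPM. The groups did not overlap, which was the case for 4 of 177 tested miRNAs in this direction (2.26%) and for 3.95% in either. The log2 difference of treated over control was -0.44 ± 0.14 (SE, edgeR adjusted p = 0.172), and leaving out a library gave -0.50 to -0.31. Scaled to read totals that a second deposited value implies, its groups overlapped, at 181 to 287 RPM (reads scaled to such a total) in control and 103 to 195 RPM in the treated group. The log2 difference was then -0.77 ± 0.25 (SE, edgeR adjusted p = 0.0855), and it was -0.29 ± 0.15 without the most abundant miRNA, miR-1a-3p (adjusted p = 0.348).

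The related strand miR-23b-3p showed no such difference. It ranged from 9119 CPM in control 1 to 14562 CPM in control 5, and from 9105 to 11885 CPM in the treated group, with a median of 10869 CPM in control and 11502 CPM in the treated group. The groups overlapped throughout. Its log2 difference was -0.09 ± 0.17 (SE, edgeR adjusted p = 0.849) and changed sign with the scaling, being 0.06 without the most abundant miRNA, miR-1a-3p, and -0.42 by read totals.

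Both miR-27 guide strands were higher in control 1 than in any other library. For miR-27b-3p, known as a regulator of lipid metabolism genes in liver, control 1 held 45517 CPM and the other control libraries 25577, 26190, 21221 and 25099 CPM. The treated libraries held 32096, 27033, 28517, 29982 and 31623 CPM. All of these lay above the control libraries other than control 1 and below control 1 itself. The log2 difference was 0.06 ± 0.20 (SE, edgeR adjusted p = 0.910) over all libraries and 0.28 ± 0.13 without control 1 (adjusted p = 0.258). By read totals it was -0.36.

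For miR-27a-3p, control 1 held 16558 CPM and the other control libraries 8263 to 11226 CPM, while treated libraries held 9650 to 11571 CPM. The latter ranges overlapped with and without control 1. Its log2 difference was -0.08 ± 0.19 (SE, edgeR adjusted p = 0.878), changing to 0.12 ± 0.14 without control 1 and to 0.04 without the most abundant miRNA.

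The shared guide strand miR-24-3p had higher values in the treated group except against control 1. Control libraries held 13700.4, 7607, 8116, 7862 and 9118 CPM, and treated libraries 12836, 9045, 13290.2, 11780.4 and 12574 CPM. Control 1 thus lay above all libraries of the other group, and treated library 2 lay with the remaining controls. The log2 difference was 0.36 ± 0.19 (SE, edgeR adjusted p = 0.398) and 0.54 ± 0.15 without control 1 (adjusted p = 0.0762), neither of which passed the threshold. By read totals, it was -0.04.

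**Figure D2:**
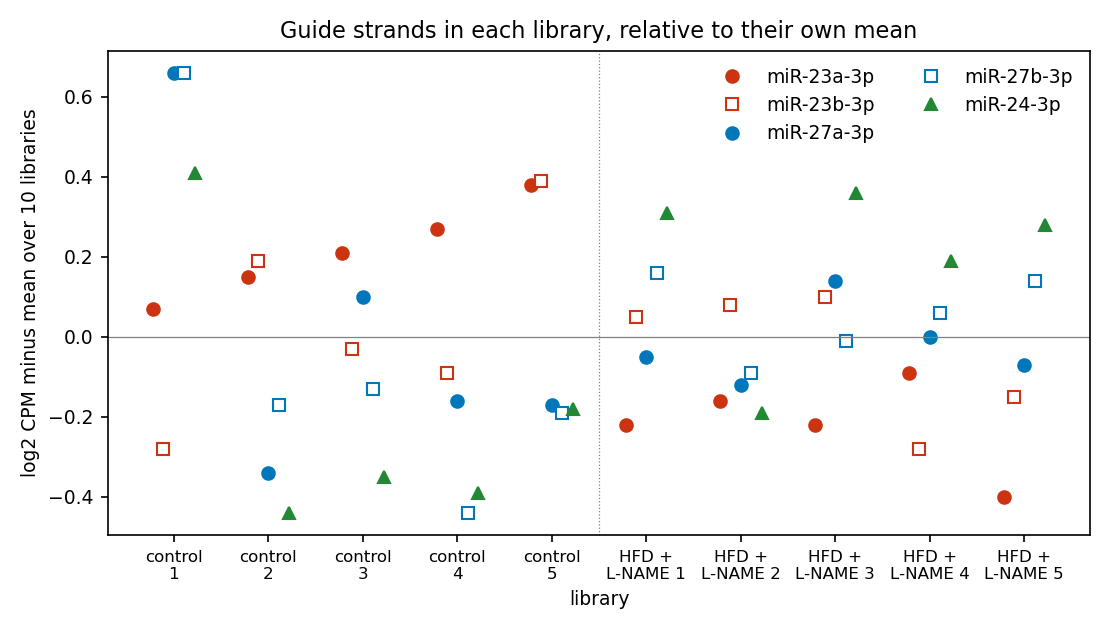
Log2 CPM of each guide strand in each of the 10 libraries minus that strand's mean over all libraries (filled circles and open squares for the a and b forms of miR-23 and miR-27, triangles for miR-24-3p). In control 1 both miR-27 strands lie at 0.66 and miR-24-3p at 0.41, while miR-23a-3p lies at 0.07 and miR-23b-3p at -0.28.

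In control 1, miR-27b-3p stood 1.86 times, miR-27a-3p 1.73 times and miR-24-3p 1.68 times as high as the mean of the other 4 controls, whereas miR-23a-3p stood at 0.880 and miR-23b-3p at 0.752 times that mean. The high values in this library followed the kind of miRNA and were found in both clusters. This library held 246829 CPM of the heart muscle markers, the lowest of the 10 libraries, and 65558 CPM of the smooth muscle markers, the highest. The smooth muscle sum was mostly miR-143-3p (6495 to 27385 counts per library, against 493 to 1011 for miR-145a-5p). The heart muscle sum was mostly miR-1a-3p. Neither sum therefore shows how the other markers of its list stood in control 1. The part of these markers in the result was not tested.

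Ratios within a library do not depend on how libraries are scaled to one another. The spread of a ratio was taken as the SD of its log2 value over the 10 libraries. Across the 10 pairs of guide strands, the most constant ratio was that of miR-27a-3p to miR-27b-3p, which come from different chromosomes (0.18). It was followed by miR-27b-3p to miR-24-3p (0.21), and by miR-27a-3p to miR-24-3p and miR-23a-3p to miR-23b-3p (0.27 each). Reads that end before base 19 fit both the a and the b form, and their effect on the a-to-b ratios was not tested. The ratios of miR-23 to miR-27 within a cluster varied more, at 0.39 for miR-23a-3p to miR-27a-3p and 0.44 for miR-23b-3p to miR-27b-3p. This does not hold for all neighbours on a primary RNA, since miR-24-3p, made from both clusters, had the lower values above against miR-27. Without control 1 the ratios of miR-23 to miR-27 had values of 0.35 and 0.31, against 0.19 for the pair of miR-27 forms. These values span both groups and so include any difference between them. Within control alone they were 0.47 and 0.60, against 0.18 for the miR-27 forms and 0.20 for the miR-23 forms. Control 1 had log2 ratios of -0.19 and -2.32, the other control libraries 0.51 to 0.94 and -1.27 to -0.79. The values of 0.47 and 0.60 thus rest largely on control 1. Within the treated group alone the ratios of miR-23 to miR-27 had values of 0.14 and 0.23. The miR-27 forms had 0.15 there and the miR-23 forms 0.21, so the order of pairs seen over all libraries did not hold in that group.

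**Figure D3:**
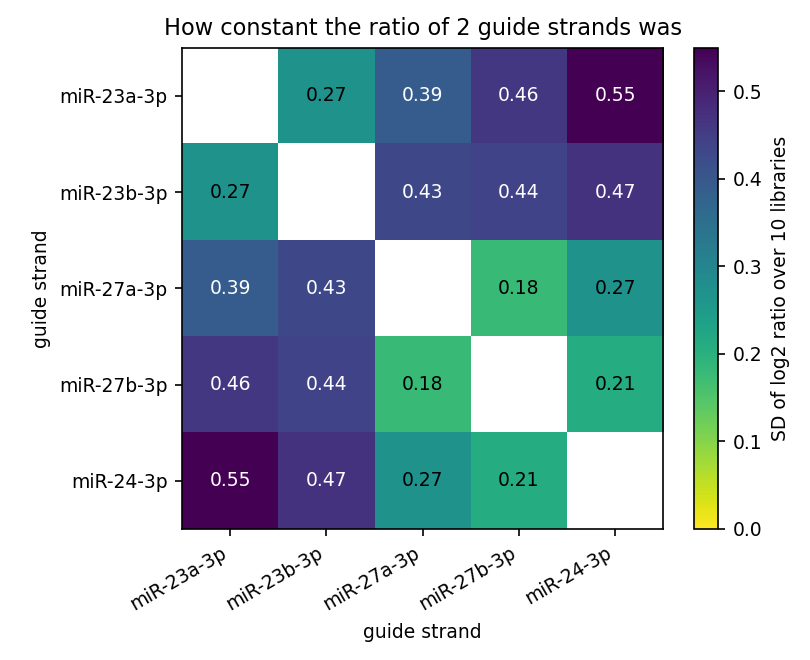
SD over the 10 libraries of the log2 ratio of read counts for each pair of guide strands (colour scale and printed values, both axes list the strands). The miR-27 forms and miR-24-3p have values of 0.18 to 0.27 among themselves, and 0.39 to 0.55 against the miR-23 forms.

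For miR-23 the a form was the more abundant, at 1.41 times the b form in control (geometric mean of 5 libraries), whereas for miR-27 it stood at 0.383 times the b form. The a-to-b ratio of miR-23 was 1.59, 1.21, 1.47, 1.59 and 1.23 in the control libraries. In the treated libraries it was 1.03, 1.05, 0.994, 1.42 and 1.04. Treated library 4 lay among the controls, and the other 4 libraries of that group lay below all of them. The log2 ratio was 0.49 ± 0.20 in control and 0.13 ± 0.21 in the treated group, a difference of -0.36 (SD, n = 5 each, exact two-sided permutation p = 0.0317, adjusted over the 8 library measures 0.0635). The smallest possible p is 0.00794 by this exact test, so a single measure could not pass 0.05 after this adjustment.

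For miR-27 the a-to-b ratio was 0.364, 0.323, 0.429, 0.442 and 0.371 in control and 0.315, 0.357, 0.406, 0.350 and 0.316 in the treated group. The groups overlapped. The log2 difference was -0.14 (n = 5 each, exact two-sided permutation p = 0.214, adjusted 0.286). With miR-23 and miR-27 guide strands summed, the a cluster held 0.679 times the reads of the b cluster in control and 0.546 times in the treated group (log2 difference -0.32, exact two-sided permutation p = 0.0238, n = 5, adjusted 0.0635). Without control 1, that difference was -0.38 (adjusted 0.0317).

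Between neighbours of the a cluster, miR-23a-3p to miR-27a-3p had a mean log2 ratio of 0.59 ± 0.47 over control libraries and 0.19 ± 0.14 over treated ones, a difference that did not pass (-0.40, n = 5 each, exact two-sided permutation p = 0.111, adjusted 0.178). Control 1 was at -0.19 and the other control libraries between 0.51 and 0.94. Without control 1 the difference was -0.60 (adjusted p = 0.0317 by the exact permutation test). In the b cluster, miR-23b-3p to miR-27b-3p differed by -0.18 (exact two-sided permutation p = 0.556, n = 5, adjusted 0.635), with control 1 at -2.32 and all other libraries between -1.72 and -0.79. It was -0.44 without control 1 (adjusted p = 0.0762 by the exact permutation test) and -0.06 without control 5 (adjusted 0.849).

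The shared strand miR-24-3p was set against the summed miR-23 and miR-27 guide strands of each cluster. Relative to the a cluster its ratio was 0.336 in control and 0.531 in the treated group. The log2 values were -1.18, -1.63, -1.74, -1.73 and -1.58 in control and -0.77, -1.28, -0.82, -0.99 and -0.70 in the treated group. The groups overlapped only through control 1 and treated library 2. The difference was 0.66 (exact two-sided permutation p = 0.0159, n = 5, adjusted 0.0635), and 0.76 without control 1 (adjusted 0.0423). Relative to the b cluster the difference was 0.34 (exact two-sided permutation p = 0.0238, n = 5, adjusted 0.0635), and 0.38 without control 1 (adjusted 0.0476).

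**Figure D4:**
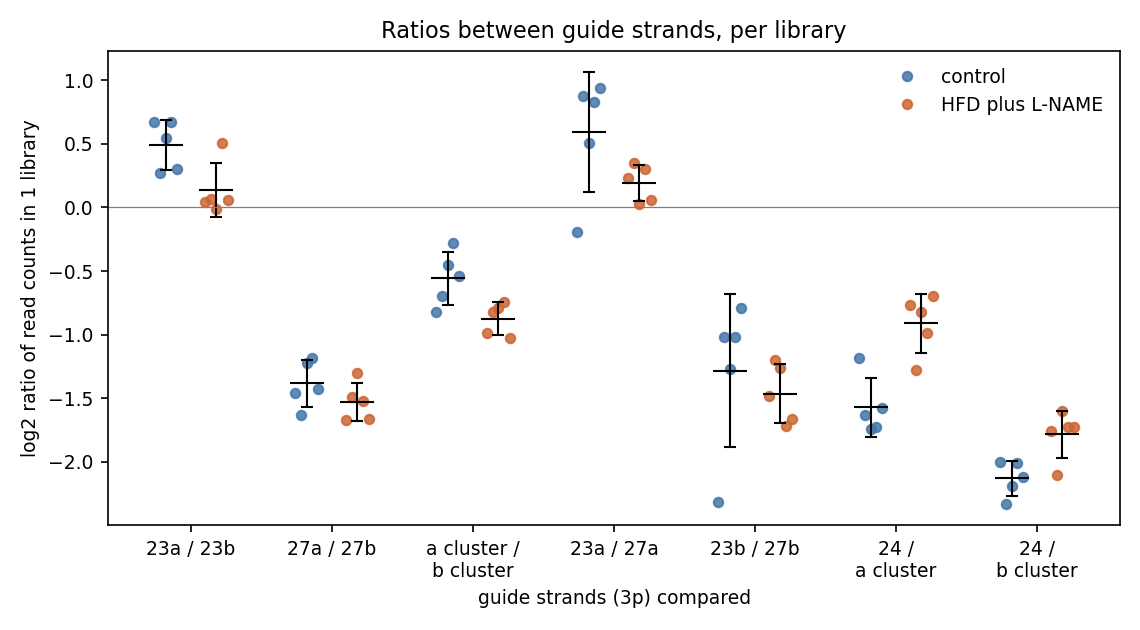
Log2 ratios of read counts of guide strands within each library, with points for libraries and black bars for the group mean ± SD (n = 5). Ratios of miR-24 to either cluster are higher in most treated libraries, and the lowest control point of the ratios 23a to 27a and 23b to 27b is control 1.

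As parts of the 5 guide strands' summed reads, miR-23a-3p took 21.5% ± 4.13 in control and 15.9% ± 1.58 in the treated group, and miR-24-3p 12.0% ± 1.10 and 15.9% ± 1.70. The parts of miR-23b-3p (15.5% ± 3.91 and 14.5% ± 1.78), miR-27a-3p (14.1% ± 2.05 and 13.9% ± 0.797) and miR-27b-3p (36.9% ± 5.37 and 39.9% ± 2.08) differed by less than their spread in control (SD, n = 5 each). For miR-27b-3p that spread was widened by control 1, at 45.8%. The other control libraries were at 32.4% to 36.9% and the treated libraries at 37.0% to 42.4%.

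Passenger strands were rare. The strand miR-23a-5p had 1 count each in control 1 and treated library 5 and 0 elsewhere, and miR-23b-5p had 9 counts in all, 5 of them in control 5. A count of 0 still allows a level of up to 7.02 CPM in control 1 and up to 12.2 CPM in control 5 (3 counts). The strand miR-27a-5p had 3 to 25 counts per library, 0.378% ± 0.271 of the reads of its hairpin's 2 strands in control and 0.304% ± 0.193 in the treated group. Its log2 difference was -0.18 ± 0.58 (SE, edgeR adjusted p = 0.889), and it changed sign without control 4 (0.33) or treated library 4 (0.12).

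The strand miR-27b-5p had 19, 31, 23, 17 and 12 counts in control and 2, 10, 18, 11 and 5 in the treated group. Their levels of 44.4 to 82.1 CPM and 6.84 to 59.4 CPM overlapped through treated library 3. The log2 difference was -0.87 ± 0.45 (SE, edgeR adjusted p = 0.398), and values stayed below 0 in all alternatives, from -1.25 by read totals to -0.63 at the other end. It took 0.224% ± 0.0858 of its hairpin's reads in control and 0.111% ± 0.0727 in the treated group. All 5 control libraries but 3 of 5 treated ones held 10 counts or more.

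The passenger strands of miR-24 differ between the clusters and so show from which hairpin reads came. The a form, miR-24-2-5p, had 600 counts over all libraries and the b form, miR-24-1-5p, had 52. Of both, the a form made up 92.0% over all libraries (exact 95% interval 89.7% to 94.0%, counting error only). This part was 90.9% ± 10.0 in control and 91.4% ± 3.87 in the treated group (SD, n = 5), with the lowest value, 74.4%, in control 5 (exact interval 57.9% to 87.0%). It stands beside 58.4% ± 3.30 for the a form of miR-23-3p and 27.8% ± 2.56 for the a form of miR-27-3p in control. In reads of miR-24 passenger strands the a form therefore prevailed, although in miR-27 guide strands the b form did. In reads of miR-27 passenger strands, which were few, the a form made up 35.3% ± 18.5 in control and 49.9% ± 21.2 in the treated group. The a form thus did not prevail in passenger strands of both kinds. Whether the hairpins keep equal parts of their passenger strands was not tested.

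The level of miR-24-2-5p was 262, 167, 268, 85.8 and 118 CPM in control and 212, 130.1, 211, 225 and 210.7 CPM in the treated group, with overlapping groups. The log2 difference was 0.14 ± 0.32 (SE, edgeR adjusted p = 0.878), with 0.42 without control 3 and 0.01 without control 5. Its count is uncertain, because miR-3074-2-3p (14 to 49 counts) lies antisense to it and it is not stated whether counting used strand.

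The tested miRNAs whose levels followed each guide strand most closely were found by the same SD of the log2 ratio, over 10 libraries and 176 other miRNAs. For miR-27a-3p these were miR-27b-3p (0.18), miR-30a-5p (0.19) and miR-30e-3p (0.23). For miR-27b-3p they were miR-490-5p and miR-30a-5p (0.17 each) and miR-27a-3p (0.18), and for miR-24-3p they were miR-30a-5p (0.20), miR-27b-3p (0.21) and miR-490-5p (0.27). The miR-23 forms had other neighbours, miR-99a-5p (0.18), miR-26a-5p (0.20) and miR-532-5p (0.21) for miR-23a-3p, and miR-22-3p, miR-145a-3p and miR-191-5p (0.22 each) for miR-23b-3p. Of these, miR-145a-3p had only 15 to 33 counts per library, so its place is uncertain. The median over all miRNAs was 0.51 to 0.59 and the 5th percentile 0.25 to 0.29, depending on the guide strand. The median includes miRNAs with few counts, such as miR-144-5p (1 to 40 per library), for which counting error widens the SD. Among the 176, miR-23a-3p ranked as number 33 for miR-27a-3p and miR-23b-3p as number 45 for miR-27b-3p.

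Of 18 miRNAs listed for blood vessels and their growth, 12 were tested, with 3 higher and 9 lower values in the treated group and a median log2 difference of -0.22, against -0.02 over all tested miRNAs. Its most abundant tested members were the endothelial miR-126a-3p (-0.32 ± 0.18, SE) and miR-100-5p (-0.17 ± 0.18), and by edgeR 0 of the 12 were called over all miRNAs, while 1 had an unadjusted p under 0.05, against 15.8% of all tested miRNAs. Of 18 miRNAs listed for cardiac hypertrophy and failure, 15 were tested, with 11 higher and 4 lower values and a median of 0.27. The most abundant were the muscle miRNA miR-1a-3p (0.48 ± 0.20) and miR-378a-3p (0.06 ± 0.16). By edgeR 0 were called and 7 of the 15 had an unadjusted p under 0.05, against 15.8% of all tested miRNAs, and miR-499-5p was 1 of the 3 that DESeq2 called.

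Of the summed cell type markers, those of smooth muscle and pericytes did not overlap between the groups, and all others did; the sums were not tested. The 3 smooth muscle and pericyte markers summed to 42614 to 65558 CPM in control and 29629 to 40919.8 CPM in the treated group. That sum was mostly miR-143-3p (-0.54 ± 0.17, SE, log2 difference), while miR-145a-5p was at 0.18 ± 0.23 and miR-145a-3p at -0.23 ± 0.26. The 2 strands of endothelial miR-126a summed to 61554 to 84628 CPM and 40453 to 73476 CPM, mostly from miR-126a-3p (-0.32 ± 0.18), whereas miR-126a-5p had a log2 difference of 0.40 ± 0.23. The 4 red blood cell markers summed to 17695 to 54113 CPM and 9215 to 25787 CPM, and the 4 leukocyte markers to 631 to 1345 CPM and 398 to 656 CPM. The 4 heart muscle markers summed to 246829 to 359449 CPM and 292883 to 474068 CPM, mostly from miR-1a-3p. They went both ways, with log2 differences of 0.48 ± 0.20 for miR-1a-3p and 0.63 ± 0.24 for miR-208a-3p. Against these, miR-499-5p was at -0.60 ± 0.15 and miR-133a-3p at -0.19 ± 0.23. The 2 fibroblast markers summed to 104 to 313 CPM and 134 to 308 CPM, with miR-214-3p at 1.09 ± 0.33 and miR-199a-5p at -0.13 ± 0.41. The liver marker miR-122-5p was at 0 to 335 CPM in control and 0 to 6.09 CPM in treated libraries. Their part in the lower miR-23a-3p values and the higher miR-24-3p values was not tested.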

How the data were processed

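The deposited table held raw read counts for 733 miRNAs in 10 libraries, as named in the file headers. The authors also deposited a second value per count without a unit, taken here as RPM because count divided by value was 1 constant per library; the read totals of 21563706 to 27493797 that it implies rest on that assumption. The submitters' processing notes name GRCm38.p6 as build. For the aligner, the counter and shared reads, the entry is: not given in the sources used here.

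Counts were tested with edgeR 4.0.16 (TMM, default expression filter, robust quasi-likelihood test, Benjamini-Hochberg over 177 miRNAs, threshold 0.05) in R 4.3.3, with DESeq2 1.42.0 as an alternative. Both the fit and the permutation test were tested on simulated data. The SE is the log2 difference divided by the square root of F. Ratios of counts were compared by exact permutation tests, adjusted over 8 measures. Likeness used a pseudocount of 0.5. Python 3.11.15, SciPy 1.17.1 and matplotlib 3.10.9 served the rest. Positions came from RefSeq and GENCODE M21.

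The members, lists and tests were chosen with earlier results of these data known. All members found by the rule were named, with the 3 miRNAs most like each guide strand and the 2 most abundant tested ones of each list. Replicate numbers follow accession order and pair nothing. No libraries were copies of each other: chi-square per degree of freedom was at least 20.2 for pairs within a group.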

Additional observations from a re-analysis of the deposited data

Results flagged for a closer look

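In 36 groups of 5 library values, a value was marked where its gap to the nearest other exceeded Dixon's 95% critical share of the group's range, which chance gives in about 1 of 20 groups, and 4 values were marked. Control 1 was far above the other controls for miR-27b-3p, at 45517 CPM against 26190 CPM for the next, and for miR-24-3p, at 13700.4 CPM against 9118 CPM. Treated library 2 was far below its group for miR-24-2-5p, at 130.1 CPM against 210.7 CPM. Treated library 4 was far above its group in the log2 ratio of miR-23a-3p to miR-23b-3p, at 0.51 against 0.07, and without it the difference between groups was -0.45 (exact permutation test, adjusted p = 0.0635).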

How the results depend on the processing

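No paired analysis was possible because the labels give no replicate numbers shared between groups. The count of called miRNAs, 0 by edgeR, was 3 by DESeq2's Wald test and 1 without the filter on low counts, and 0 to 1 with a library left out; of these calls 1 was a member, miR-23a-3p by DESeq2. Of 128 alternative values of the 8 tested members, 112 kept direction and call and 15 turned direction without being called. Without the most abundant miRNA, miR-23b-3p was at 0.06 and miR-27a-3p at 0.04. By implied read totals, miR-24-2-5p was at -0.24, miR-24-3p at -0.04 and miR-27b-3p at -0.36. With a and b forms summed, miR-27 was at 0.04, and miR-23 was at -0.24. With a library left out, miR-23b-3p ranged from -0.17 to 0.03, miR-27a-3p from -0.17 to 0.12, miR-27a-5p from -0.47 to 0.33, miR-24-2-5p from 0.01 to 0.42 and miR-27b-3p from -0.06 to 0.28. Of the 7 ratios, 0 passed with all libraries. With a library left out, differences ranged from -0.38 to -0.25 for the a to the b cluster, -0.60 to -0.31 for miR-23a-3p to miR-27a-3p, 0.61 to 0.76 for miR-24-3p to the a cluster and 0.29 to 0.42 for miR-24-3p to the b cluster, and these 4 passed without control 1 only. The range was -0.44 to -0.06 for miR-23b-3p to miR-27b-3p and -0.20 to -0.09 for miR-27a-3p to miR-27b-3p. The cause was not tested. Depth limits the passenger strands, with 31 counts or fewer per library for miR-27b-5p.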

Other observations

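On the strand opposite to Mir24-2, miR-3074-2-3p had 23 to 49 counts in control and 14 to 27 in treated libraries, with a log2 difference of -0.48 ± 0.29 (SE, edgeR adjusted p = 0.426). Its counterpart opposite to Mir24-1, miR-3074-1-3p, had 0 counts in every control library and at most 2 in a treated one.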
